A study of Bos taurus with 3 samples.

Results

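The newborn (NB) rumen was examined for 9 genes: FCER1A, CD1E, FLT3, BATF3, DNASE1L3, IRF8, TIMD4, SLAMF9 and TTR, which are 9 of the 27270 genes in the count matrices. The first 8 are known from dendritic cells and other antigen-presenting cells, and TTR was listed with them. They were picked by name with their levels in these calves already known, so their own levels are given as a description with no test. The samples were the rumens of 3 newborn Holstein calves, each 1 day old, with 1 droplet library of single cells per calf. Only the newborn group was analysed here, so no difference between ages was tested. Tissue came from the ventral sac with the outer muscle removed, and was digested with EDTA, trypsin and then collagenases, dispase, hyaluronidase and DNase. The matrices list FCER1A as ENSBTAG00000012887, CD1E as ENSBTAG00000009421, FLT3 as ENSBTAG00000018572, BATF3 as ENSBTAG00000011982 and DNASE1L3 as ENSBTAG00000018294. IRF8 is ENSBTAG00000017824, TIMD4 ENSBTAG00000013185, SLAMF9 ENSBTAG00000007241 and TTR ENSBTAG00000010991, each with 1 row.

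Dendritic cells carry antigen from a tissue to T cells and display it on MHC class II molecules, of which BOLA-DRA encodes a cattle alpha chain. They form from precursors that need the receptor FLT3, and IRF8 and BATF3 are transcription factors needed for the type 1 subset, which takes up dead cells. FCER1A, the alpha chain of the high-affinity IgE receptor, and CD1E, a lipid antigen chaperone of the CD1 family, mark the type 2 subset in humans. DNASE1L3 is a secreted enzyme that cuts DNA, TIMD4 is a receptor for phosphatidylserine on dying cells that is best known from resident macrophages, and SLAMF9 is a SLAM family receptor. TTR, transthyretin, carries thyroid hormone and, bound to RBP4, vitamin A in blood, and is made mainly in the liver and choroid plexus.

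The cells studied had 500 to 4000 detected genes, at least 30 BOLA-DRA UMIs (unique molecular identifiers, each counting 1 captured RNA molecule) per 10000 UMIs, and under 10 per 10000 for the summed keratins KRT5, KRT14 and KRT15. Of 31228 barcodes 26215 passed the gene limits, and 408 of these were MHC-II-high cells. Calf 1 gave 2 of them, calf 2 gave 32 and calf 3 gave 374, so 91.7% came from 1 animal. Libraries held 82263092 to 106145091 UMIs in all, and the median MHC-II-high cell had 8023, 6493.5 and 6666 UMIs in calves 1, 2 and 3. Libraries shared 21 to 37 barcodes in pairs, and at most 1 MHC-II-high cell in a pair was among them. Values for calf 1 rest on 2 cells throughout, and a comparison of calves is in effect one of calf 2 with calf 3.

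The cells had the expression of leukocytes. PTPRC, the pan-leukocyte phosphatase CD45, was at 4.36, 3.02 and 2.93 UMIs per 10000 in calves 1, 2 and 3 against at most 0.0373 in epithelial cells. CD74, the class II invariant chain, stood at 206, 166 and 144 per 10000. They were not a pure population of dendritic cells, however. Genes of a macrophage and monocyte list were abundant, with C1QA, a chain of complement C1q, at 19.0 per 10000 in calf 2 and 4.46 in calf 3, and CSF1R, the receptor for macrophage growth factor, at 7.46 and 4.46. In calf 3, 38 of the 374 cells, and in calf 2, 4 of the 32, also passed a gate for endothelial, stromal, lymphocyte or B cell genes, 26 of those in calf 3 by the B cell gate. Mast cell genes, checked because FCER1A also belongs to that lineage, were near 0: no UMI of the 6 genes was found in calves 1 and 2, and none exceeded 5 UMIs among the 374 cells of calf 3.

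A test across all genes compared the class with epithelial cells of the same calves, on counts summed per calf and arm (edgeR quasi-likelihood test, calf as a block, Benjamini-Hochberg adjusted p under 0.05). Calves 2 and 3 entered, since calf 1 had too few cells. With 2 calves this test had 1 residual degree of freedom, so the size of its p values should be read with caution. Of 13448 genes tested 1835 were higher in MHC-II-high cells, which is 13.6%, and 2152 were lower, which is 16.0%, and the median log2 difference over all genes was -0.25. The largest differences upward were FOLR2, CD1A, PLA2G2D4, DEFB4A, VSIG4, C1QA, C1QC and CLEC4A, of which FOLR2, VSIG4 and the C1q genes are known from macrophages and CD1A from dendritic cells. FOLR2, a folate receptor, had 120 UMIs here and 8 in the much larger number of epithelial cells, at 0.444 against 5.08e-04 per 10000. Its log2 difference was 9.78 ± 0.68 (SE, 2 calves, edgeR). CD1A, PLA2G2D4, DEFB4A and VSIG4 had 2 to 5 UMIs in epithelial cells. With so few there, these genes and FOLR2 could hardly come out lower, so their differences are a description. The arms were set apart by their keratin sums, so epithelial genes were bound to be lower in MHC-II-high cells. The genes furthest down were of this kind: TOX3, NTRK2, ENTPD3, EXPH5, SOX6, LY6G6E, DSG2 and CA1 had no UMI in MHC-II-high cells. These 8 genes were at least 16.9-fold to 50.4-fold lower, taking 3 UMIs over the group as the floor. All of these but CA1 missed the threshold in DESeq2, as given in the closing section.

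Lists of marker genes, chosen with earlier results of these data known, were counted in the same test. Several listed genes were almost absent from epithelial cells of calves 2 and 3. CD1A was at 0 and 2.51e-04 per 10000 there, and WDFY4 at 0 and 0.00327. Such genes passed the filter on low counts only through the class and could hardly come out lower. The counts below are therefore a description of the lists. XCR1 and CLEC9A of the type 1 list were not tested. Of the type 1 dendritic list 6 of 8 tested genes were higher and none lower, against 13.6% of all genes, with a median log2 difference of 4.26. Of the type 2 dendritic list 8 of 10 were higher and 1 lower, with a median of 7.75, the lower gene being KLF4, a factor that epithelium also uses. The mature migrating dendritic list had 7 of 8 higher, with a median of 4.07, and the plasmacytoid list 8 of 10 higher and BCL11A lower, with a median of 2.70, while DESeq2 called 6 higher in each of these lists. Of the macrophage and monocyte list 13 of 15 were higher and S100A12, a neutrophil and epithelial alarmin, was lower, with a median of 7.91. Genes of dendritic development, such as SPI1, the master factor of myeloid cells, were higher in 4 of 5. The mast cell list had 2 genes tested and neither passed, also with DESeq2. Liver secretory genes had 1 of 2 lower, AHSG, which DESeq2 did not call, and none higher, and of 8 vitamin A and thyroid hormone carriers only RBP4, which carries retinol with TTR, was higher while 5 were lower.

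Among the type 2 subset genes FCER1A was the most abundant member in calf 3. Its level was 15.0 UMIs per 10000 in calf 1, 2.93 in calf 2 and 15.7 in calf 3, and in calf 1 all 24 UMIs came from 1 cell. After thinning every cell to 2000 UMIs, so that all had the same depth, FCER1A was found in 25% of 32 cells of calf 2 (95% Clopper-Pearson interval 11.5% to 43.4%) and in 63.7% of 364 cells of calf 3 (58.6% to 68.7%). The intervals of calves 2 and 3 did not overlap, and all intervals given here cover counting error only. CD1E was at 11.8, 3.85 and 2.51 per 10000 in calves 1, 2 and 3, with 37.5% and 28.3% of thinned cells in calves 2 and 3 and intervals that overlapped. Both genes were higher in the 2 cells of calf 1 than in calf 2, while calves 2 and 3 stood in opposite orders for them. In calf 3 FCER1A was concentrated, 164 of its 259 positive cells holding 10 or more UMIs and 88.6% of the total, while 6 of 175 CD1E-positive cells held as many. CD1E belongs to a family of similar genes, and how reads shared with CD1A or CD1B were assigned was not tested.

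**Figure D1:**
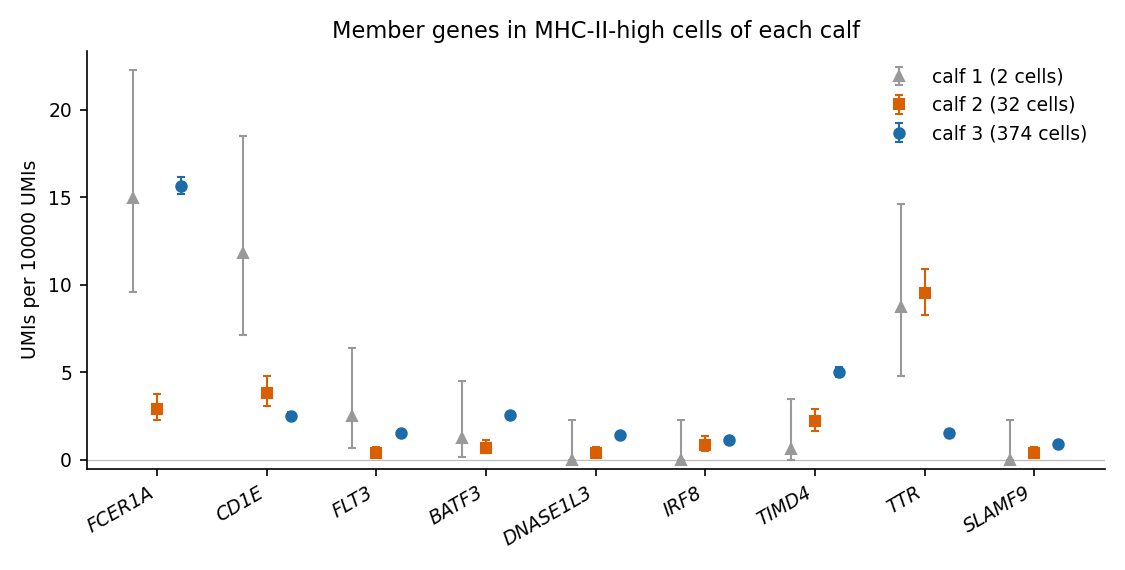
Level of each member gene, in UMIs per 10000 UMIs of the summed MHC-II-high cells, for calf 1 (triangles, 2 cells), calf 2 (squares, 32 cells) and calf 3 (circles, 374 cells), with exact 95% Poisson intervals that cover counting error only. FCER1A lay at 15.7 in calf 3 and 2.93 in calf 2, and TTR at 1.52 and 9.52.

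FLT3, the receptor of dendritic precursors, was a low but widespread gene. It stood at 2.49, 0.366 and 1.54 UMIs per 10000 in calves 1, 2 and 3, and in calf 3 it was seen in 204 of 374 cells before thinning with at most 7 UMIs in any. After thinning the share was 6.25% in calf 2 (0.766% to 20.8%) and 23.1% in calf 3 (18.8% to 27.8%), intervals that overlapped.

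The factors BATF3 and IRF8 and the enzyme DNASE1L3 were all below 3 UMIs per 10000. BATF3 was at 1.25, 0.687 and 2.53 in calves 1, 2 and 3, and was found in 9.38% and 30.5% of thinned cells in calves 2 and 3. DNASE1L3 had no UMI in the 2 cells of calf 1, and was at 0.366 in calf 2 and 1.44 in calf 3. Its cells were few but strong in calf 3, where 76 of 374 had any and 13 with 10 or more UMIs held 44.8% of the total. In calf 2 a single cell held 7 of its 8 UMIs. IRF8 had no UMI in calf 1 and was at 0.870 and 1.15 in calves 2 and 3, with thinned shares of 25% (11.5% to 43.4%) and 14.8% (11.3% to 18.9%) that were not separated by their intervals.

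TIMD4 and SLAMF9 are surface receptors. TIMD4 was at 0.623, 2.20 and 5.02 per 10000 in calves 1, 2 and 3, and was in 31.2% of thinned cells of calf 2 and 51.4% of calf 3, the second most widespread member there. SLAMF9 had no UMI in calf 1 and was the lowest member in calf 3, at 0.913 per 10000 with a thinned share of 15.9%, against 0.366 and 9.38% in calf 2.

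TTR was concentrated in few cells. Its level was 8.72, 9.52 and 1.52 per 10000 in calves 1, 2 and 3, and it was the highest member in calf 2 and sixth of the 9 in calf 3. The thinned share was 34.4% in calf 2 (18.6% to 53.2%) and 9.07% in calf 3 (6.32% to 12.5%), intervals that did not overlap. In calf 2 7 cells with 10 or more UMIs held 91.3% of its 208 UMIs, and in calf 3 17 such cells held 75.7% of 378. The highest single cell of calf 3 reached 82.5 per 10000, above the highest for FCER1A at 75.7, while the median TTR-positive cell of calf 3 had 7.80 and the median FCER1A-positive cell 20.3. In calf 1 1 cell held 13 of 14 UMIs. Liver secretory genes were near 0 in the same cells, with 5 of 6 at 0 UMIs in calf 3 and all 6 at 0 in calves 1 and 2, APOA1 in calf 3 being the exception.

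Over the 3 calves the mean level was 11.2 ± 7.15 UMIs per 10000 for FCER1A (SD, n = 3), 6.59 ± 4.41 for TTR, 6.07 ± 5.04 for CD1E and 2.61 ± 2.23 for TIMD4. The remaining 5 genes averaged between 0.426 for SLAMF9 and 1.49 for BATF3. Since the spread between calves was as large as many of the differences between genes, neighbours in this order did not differ beyond it.

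Outside the class the members were scarce, with exceptions that named genes share. In epithelial cells no member exceeded 0.0696 UMIs per 10000 in any calf, and no thinned share exceeded 0.681%, both for FCER1A in calf 3. For some members most of those UMIs lay in barcodes with high BOLA-DRA and high keratin together, of which there were 2, 11 and 62 in calves 1, 2 and 3. For example 478 of 554 epithelial FCER1A UMIs in calf 3 and 72 of 80 TTR UMIs in calf 2 were in such barcodes, and in calf 1 70 of 76 TTR UMIs were in 1 of them. DNASE1L3 and IRF8 differed, with 2.17% and 12.5% of their epithelial UMIs there in calf 2 and 40.7% and 38.2% in calf 3. Their part in the epithelial levels was measured only in this way, and whether they were 2 cells in 1 droplet was not tested. Just inside the keratin limit, at 5 to 10 per 10000, FCER1A in calf 3 was at 16.2 in 111 cells, and just outside, at 10 to 20, it was at 12.8 in 19. TTR was at 2.26 and 0.264 in the same cells. At BOLA-DRA of 20 to 30, just outside the lower limit, FCER1A was at 1.91 in 18 cells, and at 30 to 40, just inside, at 0.619 in 8.

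DNASE1L3 was the least restricted. Endothelial cells carried it at 0.351 per 10000 in calf 2 and 0.571 in calf 3, near the 0.366 of MHC-II-high cells in calf 2, and the class held 4.35% of its UMIs in calf 2 and 59.3% in calf 3. IRF8 was higher outside the class than inside it in 27 cells of calf 3 that passed the B cell gate, at 5.10 against 1.15 per 10000, and FLT3 was at 0.942 there. Those 27 cells had the plasmacytoid list genes TCF4 at 5.18, ITM2C at 4.87, SPIB at 3.61, RUNX2 at 2.98 per 10000 and JCHAIN at 27.2. They were gated on B cell genes, of which FCRLA was at 4.16 and CD79A at 3.06, while the B cell factor PAX5 had no UMI and MS4A1 had 1. They carried no UMI of FCER1A, CD1E, BATF3, DNASE1L3, TTR or SLAMF9. For FCER1A, CD1E, BATF3, TIMD4, TTR and SLAMF9 the class held 85.7% to 87.2% of the UMIs in calf 3.

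**Figure D2:**
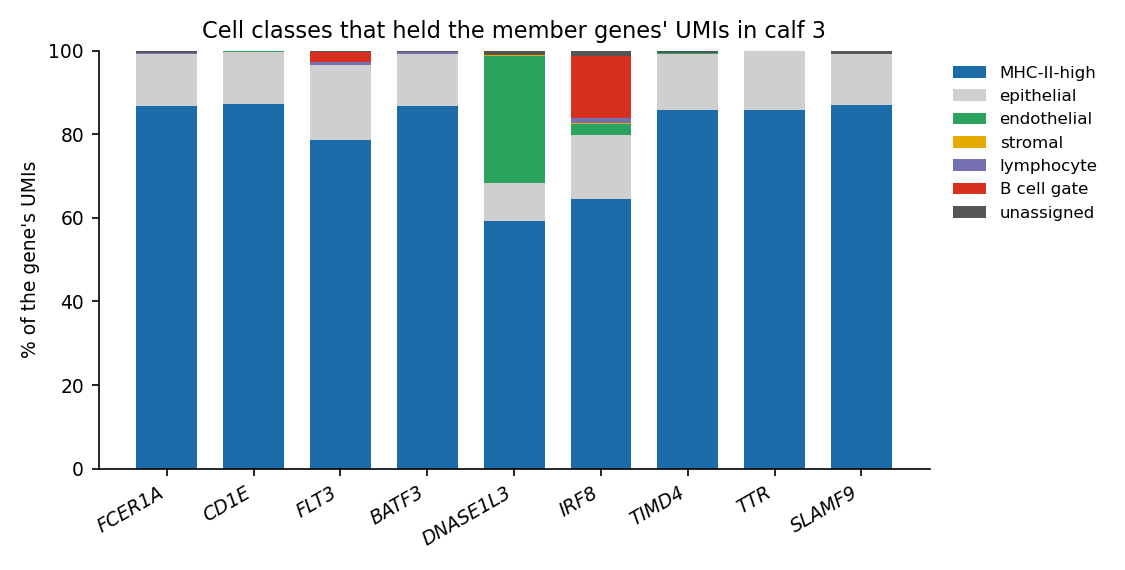
Share of each member gene's UMIs in calf 3, in percent, by cell class, over barcodes with 500 to 4000 genes. MHC-II-high cells held 59.3% of DNASE1L3 UMIs, with most of the rest in endothelial cells, and 64.6% of IRF8 UMIs.

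Cells differed in how many members they held. In calf 3 the 364 thinned cells held 0 members in 6.32%, 1 in 15.9%, 2 in 29.1%, 3 in 28.3% and 4 in 12.6%, and no cell held more than 6. Each of the 36 pairs was compared with the number of cells that would hold both if the genes were spread independently in that calf, and 18 of 36 pairs were found together less often than that and 18 more often, an even split. Cells of 1 calf share their source, so no p is given.

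Some pairs of a type 2 and a type 1 gene were found together less often than expected in calf 3. CD1E and DNASE1L3 were together in 4 cells of calf 3 against 13.0 expected, a ratio of 0.307, and DNASE1L3 was in 3.88% of CD1E-positive cells (1.07% to 9.65%) against 16.1% of the rest (11.9% to 21.1%). CD1E and IRF8 were together in 5 against 15.3, FCER1A and IRF8 in 21 against 34.4, and FCER1A and DNASE1L3 in 19 against 29.3. Under alternative settings the ratio ranged from 0.207 to 0.707 for CD1E and IRF8, and from 0.563 to 0.876 for FCER1A and IRF8. IRF8 was not particular to type 1 cells here, since 14 of its 54 positive cells passed another lineage gate. FCER1A and BATF3, however, were together in 68 cells against 70.7 expected, so BATF3 was not separated from FCER1A at this depth. Without thinning their ratio was 1.07, the highest of the alternatives, and the lowest was 0.794. In calf 2 the pairs with IRF8 stood at independence, CD1E and IRF8 being in 3 cells against 3.00 expected and FCER1A and IRF8 in 2 against 2.00. Calf 2 had 1 DNASE1L3-positive and 3 BATF3-positive cells after thinning, too few to compare.

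Other pairs were found together more often. BATF3 and DNASE1L3 were in 31 cells against 14.0 expected, a ratio of 2.21, and DNASE1L3 and IRF8 in 20 against 6.82, a ratio of 2.93. DNASE1L3 and SLAMF9 were in 14 against 7.33. FCER1A and CD1E were in 83 cells against 65.6, with CD1E in 35.8% of FCER1A-positive cells (29.6% to 42.3%) and 15.2% of the others (9.51% to 22.4%). In calf 2 FCER1A and CD1E were in 3 cells against 3.00 expected. TIMD4 was in 68 cells with CD1E against 52.9, in 66 with BATF3 against 57.0, in 49 with FLT3 against 43.2 and in 133 with FCER1A against 119, so it was not tied to type 2 genes alone, and it was rarer with IRF8, 17 against 27.7. In calf 2 TIMD4 and CD1E were in 3 cells against 3.75. FLT3 was near independence with every other member, its ratios lying between 0.788 and 1.14.

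**Figure D3:**
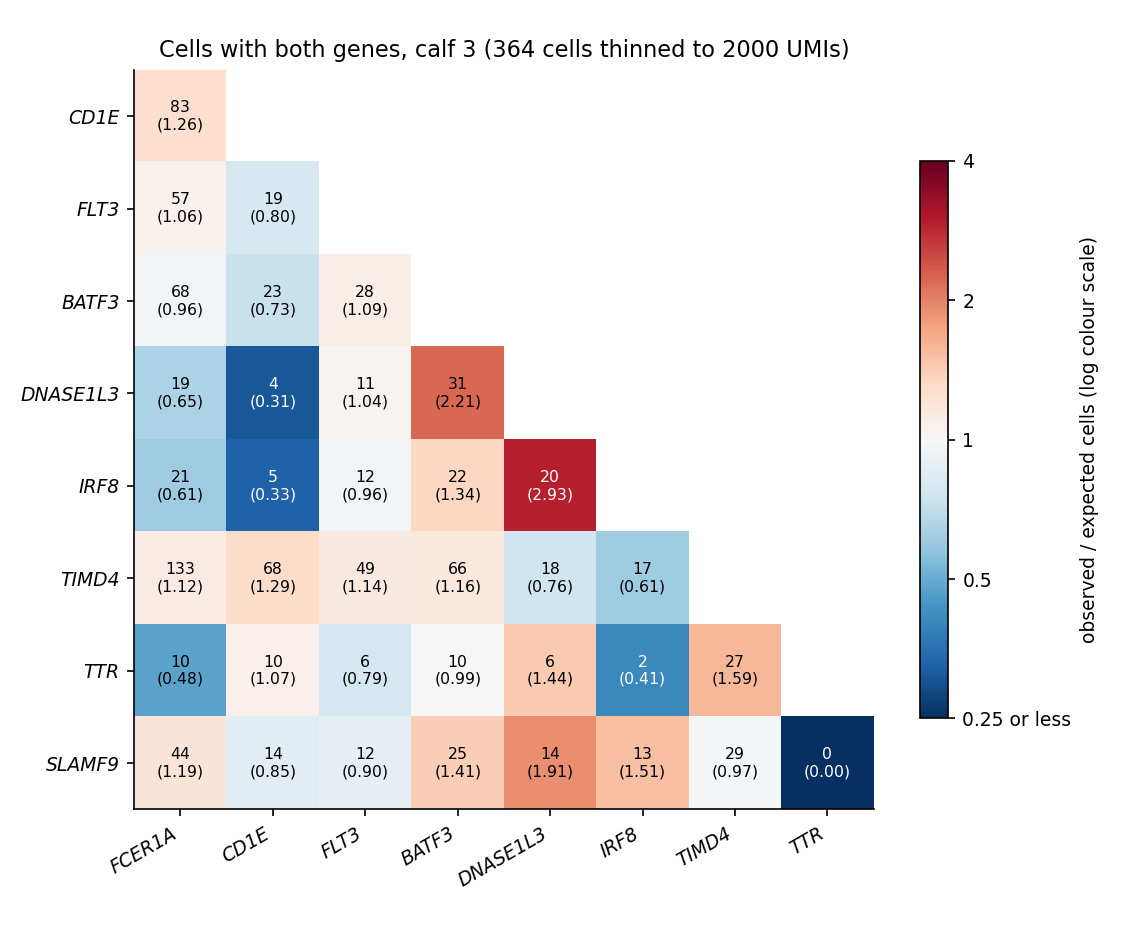
Number of MHC-II-high cells of calf 3 in which both genes of a pair had a UMI, and in brackets the ratio to the number expected if the genes were independent, over 364 cells thinned to 2000 UMIs. Blue pairs were together less often, CD1E with DNASE1L3 and IRF8 and TTR with SLAMF9 among them, and red pairs more often, DNASE1L3 with IRF8 at 2.93 the highest.

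Other markers also differed with the members. In calf 3 DNASE1L3-positive cells had WDFY4, a gene of cross-presentation, in 37.0% (17 of 46) against 5.66% of the rest, and CLEC9A, a receptor for dead cells, in 13.0% against 0.943%. SIRPA, a type 2 and macrophage receptor, was in 10.9% of them against 41.8%. Both of these lists were mixed in DNASE1L3-positive cells, however. FCGR2B of the type 2 list was in 6.52% against 1.57%. Of the macrophage list CSF1R was in 21.7% against 47.5%, but C1QA in 17.4% against 12.3%. The intervals overlapped for FCGR2B and for C1QA. FCER1A-positive cells had CD1B, a further CD1 gene, in 16.8% against 2.27% and RBP4 in 28.0% against 8.33%, while C1QB was in 1.72% against 29.5%. The macrophage list was mixed in FCER1A-positive cells. CD14 and MRC1 were also less frequent, but CSF1R was in 45.7% against 41.7% and CX3CR1 in 36.2% against 27.3%, with overlapping intervals. The type 2 list was not uniform, since CLEC6A was in 18.1% of them against 32.6% and KLF4 in 31.9% against 40.2%. The median FCER1A-positive cell had 7144 UMIs and the median FCER1A-negative cell 5807 before thinning, and 7 and 31 of these cells passed another lineage gate.

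The remaining members split the markers of calf 3 as follows. CD1E-positive cells had CD1B in 23.3% against 6.90% and CSF1R in 62.1% against 37.2%. BATF3-positive cells had WDFY4 in 19.8% against 5.14% and CSF1R in 33.3% against 49.0%. The macrophage list was mixed in them, with MS4A7 in 10.8% against 5.93% and S100A12 in 20.7% against 13.8%, and overlapping intervals for both. IRF8-positive cells were low in CSF1R, 13.0% against 49.7%, and 14 of 54 passed another lineage gate against 24 of 310. The plasmacytoid list was mixed in them, with ITM2C in 22.2% against 9.03% and SPIB in 7.41% against 1.29%, but BLNK in 1.85% against 9.03%. In calf 2 the order was reversed, CSF1R being in 7 of 8 against 16 of 24 and ITM2C in 0 of 8 against 6 of 24. TIMD4-positive cells of calf 3 had C1QB in 19.8% against 3.39% and CSF1R in 54.5% against 33.3%. In calf 2 C1QB was in 6 of 10 against 8 of 22, but CSF1R in 7 of 10 against 16 of 22. Type 2 genes were also more frequent with TIMD4 in calf 3, SIRPA in 45.5% against 29.9% and CLEC6A in 29.9% against 16.4%. CLEC10A did not differ there, in 11.2% against 11.3%. SLAMF9-positive cells had no C1QA in 58 cells against 15.4% of the rest, though in calf 2 it was in 2 of 3 against 17 of 29. In calf 3 they had WDFY4 in 19.0% against 7.84%. The type 2 list was mixed in them, with CLEC10A in 20.7% against 9.48%, CLEC6A in 12.1% against 25.5% and CD1B in 6.90% against 12.4%. FLT3-positive cells had C1QA in 4.76% against 15.4%. Taking the genes in pairs, DNASE1L3 or IRF8 was in 13.5% of 252 cells with FCER1A or CD1E (9.53% to 18.3%) and in 41.1% of the 112 without (31.9% to 50.8%). This restates the single pairs of the same cells, all of which were already below independence, and BATF3 was left out of it.

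The same contrast was then made with cells of calf 3 that held BATF3 or DNASE1L3 and neither FCER1A nor CD1E, 48 cells, against 174 with the reverse. Calf 2 had 2 and 16 such cells, so there is 1 sample per arm, no test, and only counting intervals. CLEC9A had 32 UMIs in the first arm, at 0.981 per 10000 (0.671 to 1.38), and none in the second, where up to 0.0308 is allowed. IDO1, a tryptophan-degrading enzyme of type 1 cells, had 22 and 0 UMIs, and WDFY4 was at 1.69 against 0.326. CD1B was at 0.215 against 1.25 and IRF4, a factor of type 2 cells, at 0.0613 against 0.359. XCR1, the chemokine receptor that defines type 1 cells in other species, had 1 UMI in all MHC-II-high cells of calf 3 and none in the others. IDO1 rested on few cells, with 29 UMIs in 7 MHC-II-high cells of calf 3, 17 of them in 1 cell. After thinning 4 cells held IDO1, all with BATF3 and 2 with FCER1A, and cells with both BATF3 and FCER1A were in neither arm. CD14, a monocyte gene, was at 1.41 in the first arm against 0.150, so this arm also held cells with macrophage genes, and their part in the values was not tested.

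**Figure D4:**
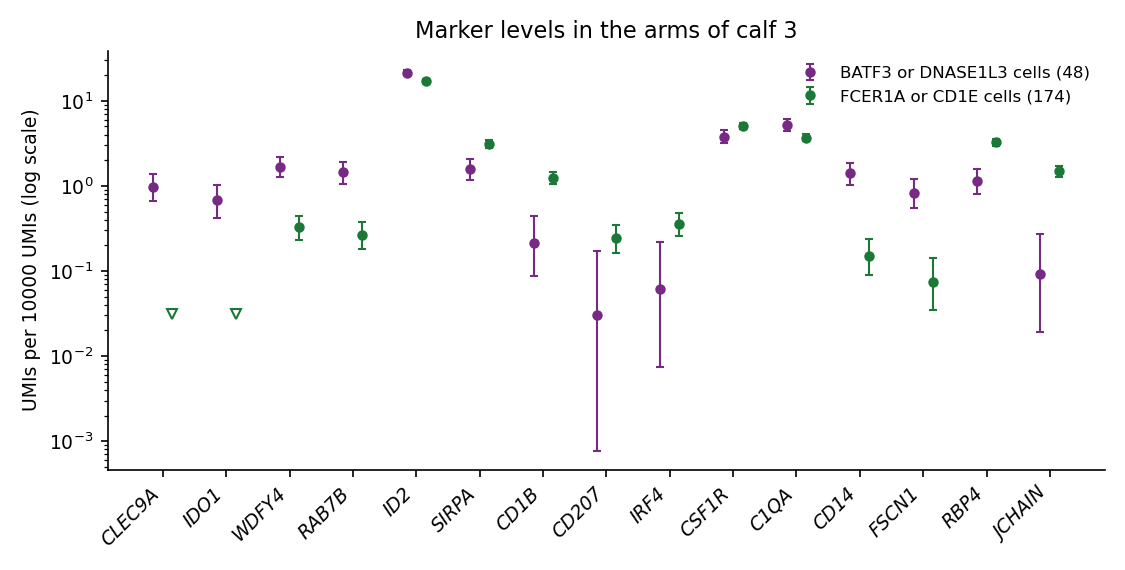
UMIs per 10000, on a log axis, of marker genes in calf 3 for 48 cells with BATF3 or DNASE1L3 (purple) and 174 cells with FCER1A or CD1E (green), with exact Poisson intervals, and open triangles marking the upper limit where no UMI was found. CLEC9A and IDO1 had UMIs in the first arm and none in the second, and CD1B and RBP4 were higher in the second. Cells with genes of both arms were left out.

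Cells with TTR more often carried C1q genes and CSF1R than cells without it, in calves 2 and 3. Of TTR-positive thinned cells, at least 1 of C1QA, C1QB and C1QC, the 3 chains of complement C1q, was found in 11 of 11 in calf 2 (71.5% to 100%) against 9 of 21 TTR-negative cells. In calf 3 it was in 25 of 33, or 75.8% (57.7% to 88.9%), against 28 of 331, or 8.46%. In the single TTR-positive thinned cell of calf 1 C1q was present as well. CSF1R was in 11 of 11 against 57.1% in calf 2 and in 81.8% against 40.5% in calf 3. FCGR1A, a high-affinity IgG receptor, was in 42.4% against 3.93% in calf 3, and MRC1, the mannose receptor, in 39.4% against 14.5%, but in calf 2 MRC1 was in 1 of 11 against 5 of 21. Other macrophage list genes also differed between calves: CD14 was in 18.2% against 3.32% in calf 3 and in 0 of 11 against 3 of 21 in calf 2, and CD68 in 36.4% against 15.7% and in 1 of 11 against 5 of 21. In calf 2 MS4A7, FCN1 and S100A12 were likewise less frequent with TTR. The type 2 list was mixed in cells with TTR. SIRPA was in 81.8% against 52.4% in calf 2 and 45.5% against 37.2% in calf 3. CLEC6A was in 45.5% against 21.1% in calf 3 but in 3 of 11 against 7 of 21 in calf 2. CLEC10A and CD1B went the other way in calf 3, each in 0 of 33 TTR-positive cells against 12.4% and 12.7% of the others. RBP4, the partner of TTR in blood, was in 6.06% of TTR-positive cells of calf 3 against 22.4% of TTR-negative cells, and in 4 of 11 against 2 of 21 in calf 2.

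Among the members TTR went with TIMD4, in 27 cells of calf 3 against 17.0 expected, and was rarer with FCER1A, 10 against 21.0. No cell held TTR and SLAMF9 against 5.26 expected in calf 3, while in calf 2 2 of the 11 TTR-positive cells held SLAMF9. In calf 2 TTR went with CD1E instead, in 8 cells against 4.12, which in calf 3 was 10 against 9.34. TTR-positive cells of calf 3 were not deeper than the rest, with a median of 5491 UMIs against 6901 before thinning.

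**Figure D5:**
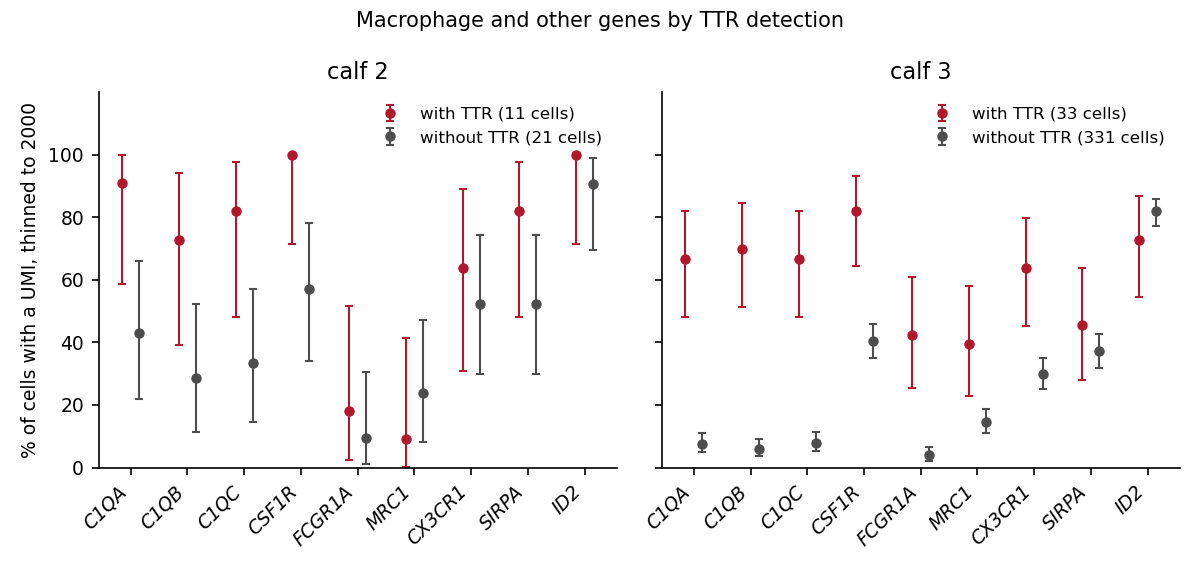
Percent of MHC-II-high cells with a UMI of each gene after thinning to 2000 UMIs, in cells with TTR (red) and without (grey), for calf 2 and calf 3, with exact 95% binomial intervals. In calf 3 the C1q genes were in 66.7% to 69.7% of TTR-positive cells and in 6.04% to 7.85% of the others.

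A test of TTR-positive against TTR-negative cells over calves 2 and 3, on counts summed per calf and arm with calf as a block, called 6 of 2489 genes, 0.241% of those tested, 4 higher (0.161%) and 2 lower (0.0804%), with 298 at an unadjusted p under 0.05. With 2 calves and 1 residual degree of freedom, this test is fragile, and the 6 calls were lost under several alternatives given in the closing section. LTC4S, leukotriene C4 synthase, was at 9.95 against 1.22 UMIs per 10000 in calf 2 and 3.64 against 0.566 in calf 3, a log2 difference of 2.75 ± 0.28 (SE, 2 calves, edgeR adjusted p = 0.0189). ALOX5AP, the protein that hands arachidonic acid to the first leukotriene enzyme, was at 11.1 against 3.11 and 5.96 against 0.978 (edgeR adjusted p = 0.0349). The chemokine CCL8 and the granule protein NKG7 were the other genes called higher, at log2 differences of 2.61 and 2.30. LGALS1, a galectin, and CKB, brain creatine kinase, were lower, by log2 -2.79 and -2.84.

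The C1q genes did not pass in that test. C1QA was 2.15 ± 0.58 higher on the log2 scale (edgeR adjusted p = 0.183), C1QB 2.34 ± 0.64 (edgeR adjusted p = 0.186) and C1QC 1.90 ± 0.69 (edgeR adjusted p = 0.30), and CSF1R was 1.47 ± 0.24 (edgeR adjusted p = 0.0567). All 4 were higher in both calves. In TMM-scaled CPM, C1QA was at 2827 in TTR-positive and 249 in TTR-negative cells of calf 3, and at 2625 and 1573 in calf 2. Of the macrophage and monocyte list 0 of 11 tested genes passed in edgeR, 7 were higher at an unadjusted p under 0.05, and DESeq2 called 2, C1QA and C1QB, higher. Its median log2 difference was 1.41 against 0.00 over all genes. None of the type 1 dendritic (2 tested), type 2 dendritic (3), mature migrating (3), plasmacytoid (3), dendritic development (2) or carrier (1) genes passed by either tool, and at an unadjusted p under 0.05 at most 1 of each list was higher and at most 1 lower. No mast cell or liver secretory gene was abundant enough to enter.

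Genes whose levels followed each member's from cell to cell were listed by the mean of the within-calf Pearson correlations over the MHC-II-high cells of calves 2 and 3, among 7580 genes. Cells of 1 calf share a library and depth, so these values are a description. TTR was most like ALOX5AP (mean r = 0.564), C1QB (0.514), C1QA (0.487) and LTC4S (0.481), with values over 0.35 in both calves for each. FCER1A was most like PAK1 (0.508), an unnamed gene (ENSBTAG00000004714, 0.499), SYNGR2 (0.434) and CD9 (0.429). DNASE1L3 and BATF3 were like each other (0.526), and DNASE1L3 was also like ENSBTAG00000050953 (0.667) and PLAC8 (0.530), although in calf 2 a single cell carried most of its UMIs. CD1E was most like CLEC5A (0.515), and TIMD4 was most like the scavenger receptor MSR1 (0.419). The gene most like FLT3, CEP95, had r = 0.69 in calf 2, where FLT3 had 8 UMIs, and 0.13 in calf 3, and the gene most like SLAMF9, PEBP1, had 0.513 and 0.230.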

How the data were processed

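Droplet libraries of the rumens of 3 newborn calves were made with the 3' v3 chemistry. Per the submitters' processing notes and the study's methods, reads were counted by the authors with Cell Ranger 3.1.0 against ARS-UCD1.2, and the deposited count matrices hold whole UMI counts per gene and barcode. Barcodes with 500 to 4000 genes were kept. MHC-II-high cells had BOLA-DRA at 30 or more per 10000 UMIs and the keratin sum under 10. Other cells were epithelial (keratin sum of 10 or more), or by summed marker genes endothelial or stromal (10 or more) or lymphocyte or B cell (3 or more). Shares were taken after thinning each cell to 2000 UMIs with a fixed seed, leaving out 10 shallower MHC-II-high cells of calf 3. Intervals are exact at 95%. Levels are UMIs of a gene per 10000 over summed cells.

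Tests used edgeR 4.0.16 (TMM, filterByExpr, quasi-likelihood) in R 4.3.3 on counts summed per calf and arm with calf as a block (both arms come from the same animal, which pairs them), in calves with at least 5 cells per arm, at a Benjamini-Hochberg threshold of 0.05. DESeq2 1.42.0, its size factors, no filter, no block and other cell filters were alternatives. The script was tested on simulated counts. Python 3.11.15 with scanpy 1.11.5 gave the counts. No doublet call entered the values, since the Scrublet threshold marked 1, 0 and 1 barcodes. Genes named outside the members are the 8 largest differences each way past the threshold with 1 sign in both calves, up to 4 per marker list and up to 4 most alike, apart from markers chosen after their values were seen. Members and marker lists were chosen with earlier results of these data known. TPSB1, IL3RA, CLNK, NFIL3 and ITGAX, listed as markers, were not matched by symbol. Adult samples were not analysed here. The genes most like IRF8 are not reported here.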

Additional observations from a re-analysis of the deposited data

How the results depend on the processing

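The class of 408 cells fell to 34 without newborn replicate 3 and stood at 376 and 406 without the others, and its size stayed within 1.5 times under the other filters and limits (279 with a keratin sum under 5 to 468 with BOLA-DRA at 15 or more). The median over members of the mean level, 1.49 per 10000, ranged from 1.41 to 2.02 when a calf was left out and was 2.21 over pooled cells. The median thinned share of 26.4% became 46.0% without thinning. Of 36 pairs in calf 3 13 to 20 were together less often than expected under the alternatives.

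The number of genes differing between TTR-positive and TTR-negative cells was 6. It became 0 with DESeq2 size factors (291 at an unadjusted p under 0.05), 0 without the replicate block (156), 0 with TTR-positive cells taken from 2 UMIs (205) and 0 without cells that passed another lineage gate (194), all in edgeR. It became 11 in DESeq2 (74 at an unadjusted p under 0.05), 27 without the highest Scrublet scores and 112 with no filter on low counts, and the cause was not tested. The last 3 cell alternatives, by Scrublet score, by 2 UMIs and by lineage gate, were chosen after seeing the data. The edgeR adjusted p of LTC4S was highest without the block, at 0.775. The epithelial comparison gave 3798 genes without the block, against 3987 with it. DSG2, LY6G6E, SOX6, EXPH5, ENTPD3, NTRK2 and TOX3 missed the threshold in DESeq2 in the epithelial comparison (adjusted p 0.145 to 0.248), whose count was 2757 to 4556 under all alternatives. No test could leave out a calf, since the remaining calf leaves no residual degrees of freedom. Values of calf 1 are limited by its 2 cells. Scrublet's own threshold marked almost no barcode and gave no alternative.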
